A study of Mus musculus with 16 samples.

Results

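The Hox genes are transcription factors that give the body axis its regional identity, and they are described here in dorsal root ganglia (DRGs), the clusters of sensory neurons beside the spinal cord. The members are all protein-coding genes named Hoxa, Hoxb, Hoxc or Hoxd followed by a number, which gave 39 of the 52636 genes in the count files. They lie in 4 clusters: 11 genes of cluster A on chromosome 6, 10 of cluster B on chromosome 11, 9 of cluster C on chromosome 15 and 9 of cluster D on chromosome 2. Reads were counted on 37 of the 39 genes, 29 had a mean of at least 1 CPM (read count divided by the scaled library size in megareads), and 32 passed the filter on low counts and were tested.

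RNA was sequenced from the DRGs of 16 male C57Bl6/J mice of 3 to 4 months, 1 mouse per library, with 4 mice in each group. In the SNI groups the common peroneal and sural branches of the left sciatic nerve were cut and the tibial branch was spared (spared nerve injury, SNI), while the sham groups had surgery only. The Sham-DMI and SNI-DMI groups received desipramine (DMI), a tricyclic antidepressant, by injection over 3 weeks, with 2 doses of 15 mg/kg each day, and the Sham-Saline and SNI-Saline groups received saline. Treatment began 4 weeks after surgery by the study's results section, while its methods section gives months in place of weeks. The ganglia of lumbar levels 3 to 6 of a mouse were combined, and neither their side nor the number that entered each pool is given in the sources used here. In the labels the tissue field reads spinal cord, while the field for cell type reads dorsal root ganglia.

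Hox genes within a cluster are arranged in the order in which they are used along the embryo, so that genes of low paralogue number are switched on towards the head and genes of high number towards the tail. Paralogues are the related genes that hold the same position in different clusters. Neurons keep much of this code into adult life. Genes of paralogue groups 10 and 11 are known for patterning the lumbar and sacral levels and the hindlimb, and their levels are given mouse by mouse.

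Between 41194238 and 73920332 reads per mouse lay on genes, with a median of 61663706.5. The neuronal markers of the DRG were abundant in every library. Peripherin (Prph) ran from 1436 to 1960 CPM, advillin (Avil) from 824 to 1033 CPM and the nociceptor sodium channel Scn10a from 966 to 1364 CPM. Of the 8 markers fixed for spinal cord neurons, Mnx1, a motor neuron factor, did not exceed 0.122 CPM in any library, Chat 0.0919 CPM, Lbx1 0.121 CPM and Slc6a5 0.520 CPM. Gad1 ran from 0.418 to 1.34 CPM, Pax2 from 0.899 to 2.61 CPM and Slc5a7 from 1.72 to 4.92 CPM. The summed markers of spinal motor neurons came to between 197 and 279 CPM, of which Isl2, a gene that DRG neurons also express, held 194 to 276 CPM. The summed oligodendrocyte markers ran from 2.005 to 24.9 CPM, mostly Mobp, while Olig2 did not exceed 0.290 CPM. The summed astrocyte markers ran from 28.4 to 52.1 CPM, with Aldh1l1 at 11.2 to 17.4 CPM and Aqp4 at 7.53 to 13.4 CPM. The summed DRG neuron markers came to between 6665 and 8158 CPM.

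The Hox profile rose from the rostral genes to paralogue groups 9 and 10 and ended at group 11. Levels of different genes are compared per kilobase of exon, as the mean over the 16 mice. The highest level was that of Hoxd1, a rostral gene known for its use in nociceptors, at 12.2 ± 1.10 CPM per kb (SD, n = 16). It stood apart from the other genes of groups 1 to 3. Hoxd3 had 0.624, Hoxb2 0.672, Hoxa3 0.715 and Hoxb3 1.04 CPM per kb, and Hoxa2 had 0.508 CPM per kb. In groups 4 to 6 the levels were between 1.01 CPM per kb for Hoxd4 and 6.11 CPM per kb for Hoxb6. Hoxa4 had 1.38, Hoxb4 2.59 and Hoxc4 3.57 CPM per kb. Hoxc5 had 1.14, Hoxa5 4.29 and Hoxb5 5.15 CPM per kb, and in group 6 Hoxa6 had 1.73 and Hoxc6 5.56 CPM per kb.

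The middle and lower trunk genes held most of the Hox reads. Hoxa7 had 10.4 and Hoxb7 6.72 CPM per kb. Hoxd8 had 10.4, Hoxb8 5.96 and Hoxc8 2.54 CPM per kb. All 4 group 9 genes were abundant, with 10.5 CPM per kb for Hoxd9, 10.1 for Hoxa9, 7.86 for Hoxb9 and 4.15 for Hoxc9. The group 10 genes had 11.2 ± 0.656 CPM per kb (Hoxa10), 8.88 ± 4.84 (Hoxd10) and 7.88 ± 1.89 (Hoxc10). In the order from Hoxd1 through Hoxa10, Hoxd9, Hoxd8 and Hoxa7 to Hoxa9, neighbours did not differ by more than the larger SD of the pair. The order itself was not tested. In group 11 Hoxc11 had 4.02 ± 2.62, Hoxd11 1.24 ± 0.785 and Hoxa11 0.214 ± 0.136 CPM per kb. By share of all Hox reads, group 9 held 27.6%, group 10 held 17.2%, group 8 held 13.04% and group 7 held 10.2%, while group 11 held 3.53%. Cluster A held 35.8%, cluster D 25.5%, cluster B 21.8% and cluster C 16.9% of the Hox reads.

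**Figure D1:**
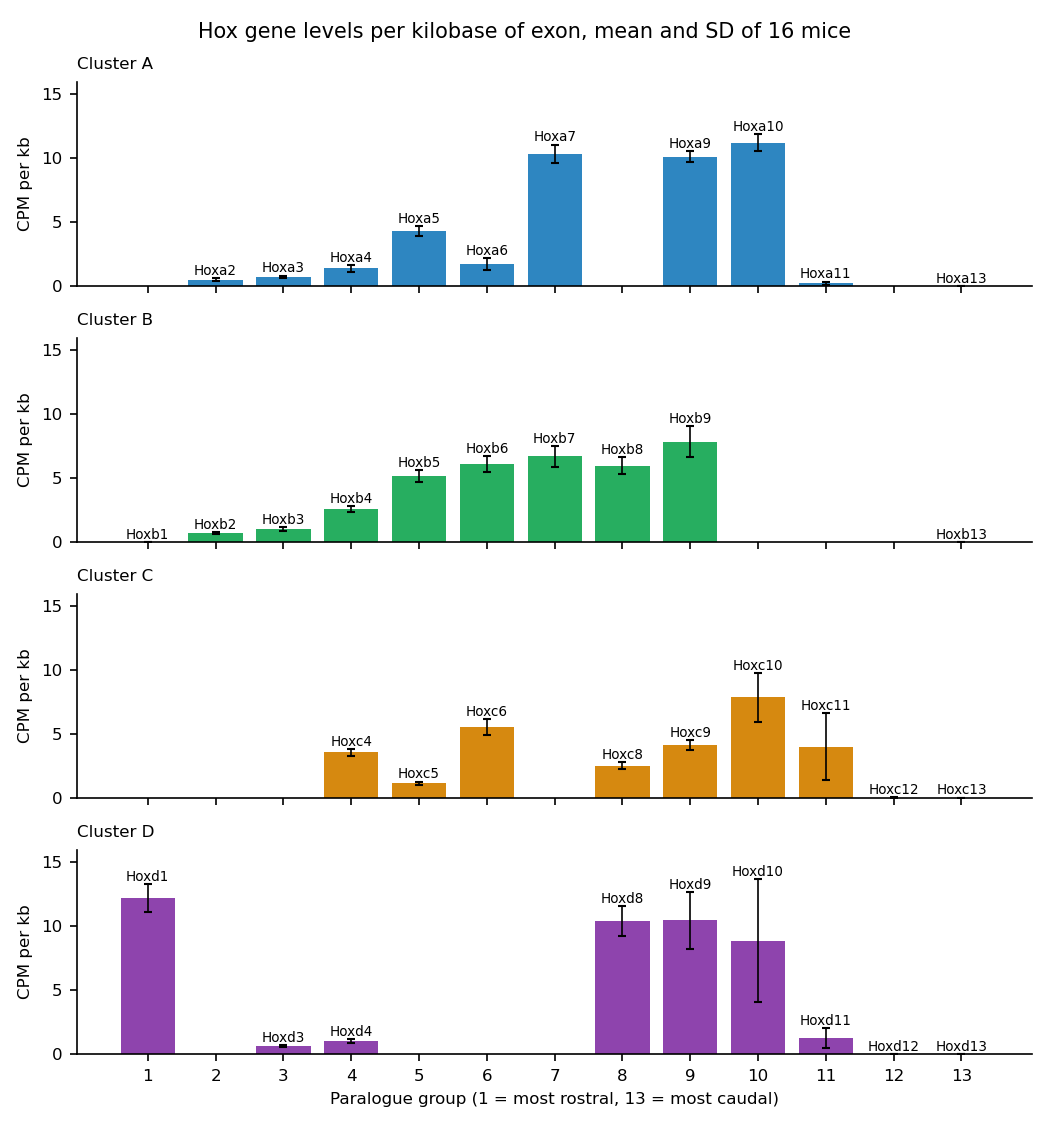
Mean level of the reported Hox genes in CPM per kilobase of exon, by paralogue group on the horizontal axis and by cluster in the 4 panels, with bars for the mean and lines for the SD of 16 mice. Levels climb to groups 7 to 10, Hoxd1 stands alone at 12.2 CPM per kb among the rostral genes, and the widest SDs are those of Hoxd10, Hoxc11 and Hoxd9.

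The genes of groups 12 and 13, which pattern the most caudal end of the body and the digits, were nearly silent. Hoxa13 and Hoxd13 had no read in any of the 16 libraries, which allows up to 0.0406 to 0.0728 CPM per library (3 reads, counting error only). Over all libraries together Hoxd12 had 2 reads, Hoxb13 had 11, Hoxc13 had 27 and Hoxc12 had 30. Hoxc12 reached 0.166 CPM in Sham-Saline replicate 4 and Hoxc13 reached 0.199 CPM in SNI-DMI replicate 2. Both were at 0 in Sham-Saline replicate 1, in SNI-Saline replicates 3 and 4 and in all Sham-DMI mice. Among the rostral genes Hoxb1, which patterns the hindbrain, had 6 reads in all.

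Some members share exon sequence with other genes. Reads that fit several genes were set apart as ambiguous, at 3.05% to 3.41% of each library, and were left out. Levels per kb over the full exon length can thus be too low for members with shared bases. In the annotation, 9 members share exon bases with another gene on the same strand and 10 with a gene on the opposite strand, while 23 share none. Hoxd3 shares 62.3% and Hoxd4 52.3% of their exon length on the same strand, with each other and with Gm28230, so these genes cannot be fully told apart. Hoxb3 shares 52.9% with its antisense gene Hoxb3os. The libraries were stranded, but the strand setting of the counting is not given in the sources used here. With the bases shared on either strand left out of the gene length, Hoxa7 came first (13.02 CPM per kb) before Hoxd1 (12.2), and the first 10 genes were the same. On that length Hoxd3 had 1.68, Hoxd4 2.12 and Hoxb3 2.20 CPM per kb. All shared bases of Hoxa7, 20.4% of its exon length, lie on the opposite strand with Hoxaas3. Its first place thus depends on the strand setting of the counting. Hoxa10 shares no exon base, Hoxc11 none, Hoxd10 5.73% and Hoxd11 10.8%.

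The promoters shown are those of paralogue group 10, whose members differed most in how steadily they were expressed. Hoxa10 was steady and Hoxd10 varied most in the group. The sequences are the 250 bases before each start in RefSeq on GRCm38.p6, written 5′ to 3′ on the strand of the gene, with CpG dinucleotides in capitals. Hoxa10 has 2 starts on the minus strand, at chr6:52234940-52235189 and chr6:52240855-52241104, and Hoxd10 has 1 on the plus strand at chr2:74691641-74691890.
Hoxa10 promoter, proximal start: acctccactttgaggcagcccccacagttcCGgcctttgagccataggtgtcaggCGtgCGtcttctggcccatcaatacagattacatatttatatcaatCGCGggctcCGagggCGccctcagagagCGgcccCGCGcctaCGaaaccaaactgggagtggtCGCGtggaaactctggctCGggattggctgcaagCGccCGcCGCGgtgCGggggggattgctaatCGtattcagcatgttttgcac
Hoxa10 promoter, distal start: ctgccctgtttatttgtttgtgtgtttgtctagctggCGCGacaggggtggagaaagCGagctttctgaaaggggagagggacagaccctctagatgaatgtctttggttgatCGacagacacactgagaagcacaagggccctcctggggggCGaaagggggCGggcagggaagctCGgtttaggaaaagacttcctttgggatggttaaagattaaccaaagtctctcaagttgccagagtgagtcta
Hoxd10 promoter: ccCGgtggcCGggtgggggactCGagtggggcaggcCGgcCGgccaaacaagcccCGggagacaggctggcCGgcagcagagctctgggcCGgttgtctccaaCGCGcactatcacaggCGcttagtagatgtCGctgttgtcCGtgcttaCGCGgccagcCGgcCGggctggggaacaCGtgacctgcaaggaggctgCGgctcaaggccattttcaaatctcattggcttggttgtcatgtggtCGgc
The proximal Hoxa10 promoter and the Hoxd10 promoter each hold 20 CpGs and the distal Hoxa10 promoter holds 7. The median was 12.5 over the 24 promoters of the 22 Hox genes in the table and 6 over all 32851 promoters. The motif TTTATNG, the site preferred by proteins of the posterior Hox groups and of the caudal family, was searched on both strands. It was found in none of the 3, in 8.333% of the Hox promoters and in 9.811% of all promoters. The promoters of Hoxc10 and Hoxc11 were not analysed here.

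Hoxd10, Hoxc11 and Hoxd11 differed from mouse to mouse more than the other Hox genes with a mean of at least 1 CPM did. Hoxd10 had 9.30, 19.3, 21.4 and 26.6 CPM in Sham-Saline replicates 1 to 4, and 18.7, 20.2, 5.99 and 5.75 CPM in SNI-Saline replicates 1 to 4. It had 19.4, 7.14, 14.1 and 0.426 CPM in Sham-DMI replicates 1 to 4, and 16.2, 34.9, 16.5 and 21.96 CPM in SNI-DMI replicates 1 to 4. All 4 groups overlapped. The highest mouse was SNI-DMI replicate 2 and the lowest was Sham-DMI replicate 4, with 2282 and 27 reads on the gene, an 82.1-fold span of CPM. Low values below 10 CPM were found in 5 mice of 3 groups and in no SNI-DMI mouse.

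Hoxc11, on another chromosome, followed the same order of mice at its ends. It had 1.95, 9.37, 10.4 and 13.01 CPM in the Sham-Saline mice and 9.46, 12.7, 1.78 and 1.67 CPM in the SNI-Saline mice. In the Sham-DMI mice it had 9.80, 3.66, 5.49 and 0 CPM, and in the SNI-DMI mice 11.03, 19.9, 9.65 and 10.1 CPM. The library of Sham-DMI replicate 4 held no Hoxc11 read among 62142536 reads on genes, which allows up to 0.0483 CPM (3 reads), while SNI-DMI replicate 2 held 1298. The same 5 mice that were low in Hoxd10 had the 5 lowest values of Hoxc11.

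Hoxd11, the neighbour of Hoxd10 in cluster D, ran from 0.0315 CPM (2 reads) in Sham-DMI replicate 4 to 12.4 CPM in SNI-DMI replicate 2. It had 2.99, 7.23, 8.82 and 9.84 CPM in the Sham-Saline mice and 4.69, 6.87, 2.30 and 1.27 CPM in the SNI-Saline mice. Hoxc10 moved less, with 11.9, 15.5, 16.5 and 19.2 CPM in the Sham-Saline mice and 18.7, 13.2, 12.3 and 8.34 CPM in the Sham-DMI mice. Its lowest and highest mice were those of Hoxd10, at 8.34 and 22.3 CPM. Hoxd9 had the same ends at 15.1 and 31.8 CPM, and Hoxd8 at 23.7 and 34.3 CPM. Hoxa11, at 0.0522 to 1.03 CPM, also had its highest value in SNI-DMI replicate 2.

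Hoxa10 and Hoxa9, from cluster A, were steady in the same mice. Hoxa10 stayed between 32.7 and 39.9 CPM and Hoxa9 between 52.8 and 61.1 CPM over all 16 libraries. Within groups the SD of log2 CPM was 2.15 for Hoxc11, 1.68 for Hoxd11 and 1.39 for Hoxd10, against 0.35 for Hoxc10, 0.09 for Hoxa10 and 0.07 for Hoxa9. Among 15750 genes with a mean of at least 1 CPM these SDs ranked Hoxc11 at place 7, Hoxd11 at 10 and Hoxd10 at 17 from the largest, and Hoxc10 at 875. The median SD was 0.12 over all of these genes and 0.16 over the Hox genes of groups 1 to 8.

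**Figure D2:**
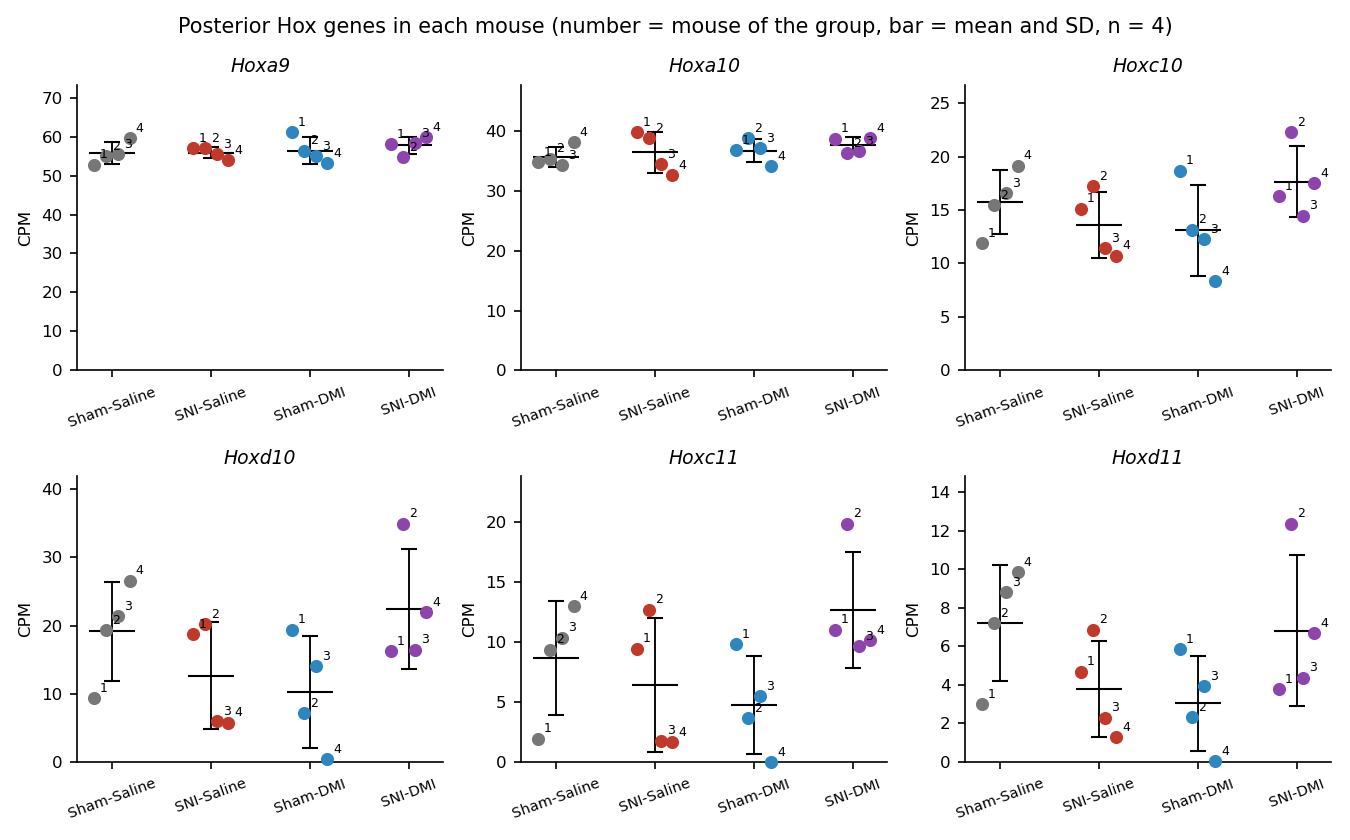
Level in CPM of 6 posterior Hox genes in each of 16 mice, by group, with points numbered by replicate and lines for the mean and SD of 4 mice. Hoxa9 and Hoxa10 are nearly level across mice, while Hoxd10, Hoxc11 and Hoxd11 fall to 0.426, 0 and 0.0315 CPM in Sham-DMI replicate 4 and peak at 34.9, 19.9 and 12.4 CPM in SNI-DMI replicate 2.

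The sum of the other Hox genes varied little beside that of the caudal genes. The genes of groups 1 to 9 together had between 298 and 342 CPM per mouse. The genes of groups 10 to 13 had between 43.2 and 127 CPM, and those of groups 11 to 13 between 0.252 and 33.5 CPM. As a share of Hox reads, groups 10 to 13 held 12.7% in Sham-DMI replicate 4 (95% Wilson interval 12.2 to 13.1) and 29.5% in SNI-DMI replicate 2 (28.96 to 30.02). These intervals cover counting error only.

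The share was 16.9%, 21.7%, 22.8% and 25.4% in the Sham-Saline mice and 22.2%, 23.9%, 15.8% and 14.7% in the SNI-Saline mice. It was 21.1%, 17.1%, 18.9% and 12.7% in the Sham-DMI mice and 21.2%, 29.5%, 20.4% and 23.1% in the SNI-DMI mice. The highest and the lowest group mean were those of the SNI-DMI and the Sham-DMI mice. The means were 21.7% ± 3.55, 19.2% ± 4.58, 17.4% ± 3.56 and 23.6% ± 4.10 (SD, n = 4) in this order. All groups overlapped, and no test was run on a score over the members.

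**Figure D3:**
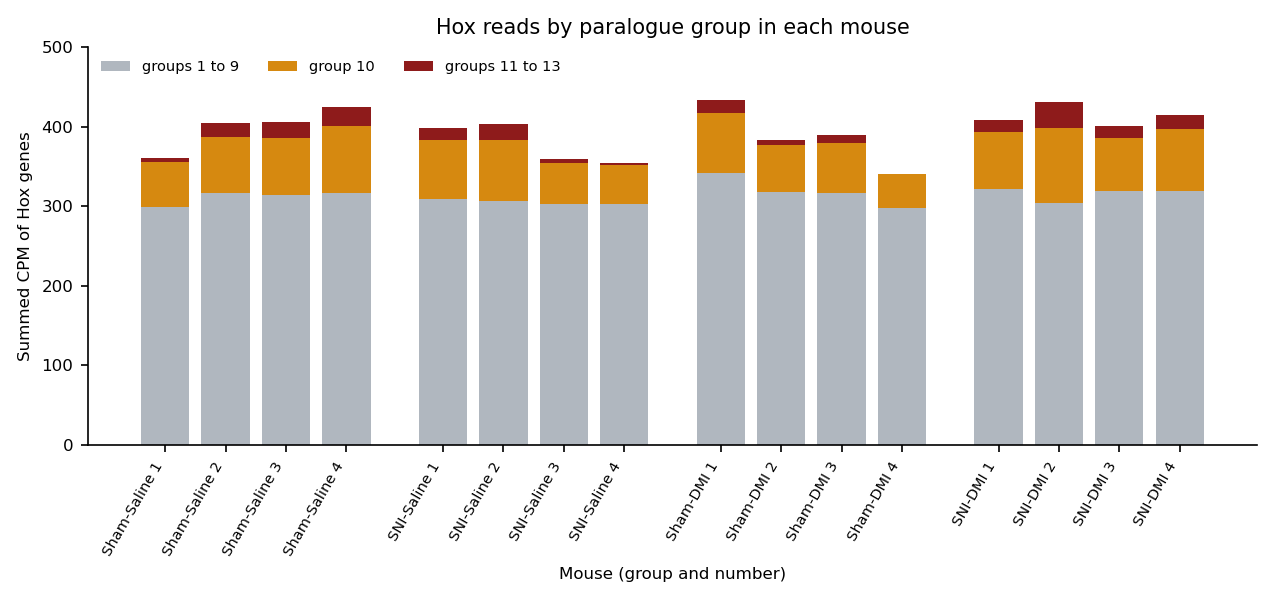
Summed CPM of the Hox genes in each of 16 mice, stacked as paralogue groups 1 to 9, group 10 and groups 11 to 13. The lower stack stays between 298 and 342 CPM, while the uppermost stack runs from 0.252 CPM in Sham-DMI replicate 4 to 33.5 CPM in SNI-DMI replicate 2.

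Genes of group 10 on different chromosomes rose and fell together. After the group means were removed, log2 CPM of Hoxc10 and Hoxd10 had Pearson's r = 0.866 (permutation within groups, 100000 draws, two-sided p = 0.0001, adjusted p = 0.0003 over 3 pairs). Spearman's rho was 0.871 (permutation p = 0.00042, adjusted p = 0.00126), and r was 0.882 without Sham-DMI replicate 4 and SNI-DMI replicate 2, the mice farthest from the median of Hoxc10. Hoxa10 and Hoxc10 had r = 0.596 (permutation p = 0.0382, adjusted p = 0.0382) and rho = 0.574 (permutation p = 0.0573, adjusted p = 0.0573). Hoxa10 and Hoxd10 had r = 0.589 (permutation p = 0.0351, adjusted p = 0.0382) and rho = 0.597 (permutation p = 0.0508, adjusted p = 0.0573). Without SNI-Saline replicates 1 and 4 these last r values were 0.555 and 0.580. The steady Hoxa10 thus shared a direction with the variable genes, but on ranks neither of its pairs passed 0.05 after adjustment.

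Markers of other cells were read in the mice at both ends. The summed DRG neuron markers were 6874 CPM in Sham-DMI replicate 4 and 7383 CPM in SNI-DMI replicate 2, within the range of 6665 to 8158 CPM over all mice. The summed skeletal muscle markers were 1.77 and 181 CPM, the second being the highest of all libraries. The summed adipocyte markers were 3.45 CPM, the highest of all, and 0.490 CPM, with leptin (Lep) at no more than 0.0788 CPM in any library. The part of these cells in the Hox values was not tested. In whole ganglia, fewer cells of one kind and less RNA per cell cannot be told apart.

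The first comparison asked which genes nerve injury changes without drug (SNI-Saline versus Sham-Saline). Of the 32 tested Hox genes 1 was called by edgeR's quasi-likelihood test at a Benjamini-Hochberg adjusted p under 0.1, where 12% of all 21371 tested genes were called. This gene was Hoxb7, a trunk gene of cluster B. It had 9.84, 9.10, 8.34 and 8.32 CPM in the Sham-Saline mice and 11.3, 10.96, 11.2 and 10.8 CPM in the SNI-Saline mice. The groups did not overlap, and the log2 fold change was 0.31 (SE 0.09, edgeR adjusted p = 0.0491). Hoxb7 no longer passed without replicate 3 or 4 of Sham-Saline (adjusted p = 0.123 and 0.122), without SNI-Saline replicate 1 or 2 (0.111 and 0.102), and with trends on GC content and length removed (0.122). Over the tested Hox genes the median was -0.08 on the log2 scale, against -0.0006 over all genes. Of the cell type markers Tubb3 was called higher and Scn9a lower, where 5.85% of all genes were called higher and 6.18% lower.

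The tested genes of groups 10 and 11 other than Hoxa10 were lower on average after injury, without passing the test. Hoxd10 had 19.1 ± 7.24 CPM in Sham-Saline and 12.7 ± 7.88 CPM in SNI-Saline mice (SD, n = 4), or -0.60 on the log2 scale (SE 0.60, edgeR adjusted p = 0.601). For Hoxd11 the log2 fold change was -0.94 (SE 0.66, adjusted p = 0.426) and for Hoxc11 it was -0.45 (SE 0.76, adjusted p = 0.783). These standard errors are about as large as the differences themselves. Hoxa10, the most abundant gene of these groups, did not fall, with a log2 fold change of 0.03 (SE 0.06, edgeR adjusted p = 0.823).

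The second comparison asked what DMI changed in injured mice (SNI-DMI versus SNI-Saline). No Hox gene was called by edgeR, where 2.93% of all tested genes were. By unadjusted p under 0.05 there was 1 (18.5% of all genes), and DESeq2 called 0 (11.6%). The gene with the smallest p was Hoxd9, with 21.6, 24.4, 15.6 and 17.9 CPM in the SNI-Saline mice and 25.7, 31.8, 21.3 and 26.1 CPM in the SNI-DMI mice. Its log2 fold change was 0.40 (SE 0.18, edgeR adjusted p = 0.246). Hoxa7 followed with 0.13 (SE 0.06, adjusted p = 0.289) and Hoxc10 with 0.37 (SE 0.21, adjusted p = 0.340). For Hoxd10 the log2 fold change was 0.83 (SE 0.60, adjusted p = 0.482) and for Hoxc11 it was 0.99 (SE 0.76, adjusted p = 0.509). The median over the tested Hox genes was 0.05, against -0.005 over all genes.

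The third comparison asked what DMI changed in sham mice (Sham-DMI versus Sham-Saline), and it shares the Sham-Saline mice with the first. It held the most called Hox genes, 3 of 32, while 23.4% of all tested genes were called. DESeq2 also called 3, beside 28.4% of all genes it tested. Of these, Hoxb7 had 10.9, 10.4, 10.6 and 13.4 CPM in the Sham-DMI mice, all above the Sham-Saline mice, with a log2 fold change of 0.35 (SE 0.09, edgeR adjusted p = 0.0136). Hoxb8, a gene whose loss is known to alter grooming and pain responses in mice, had 14.8, 15.1, 14.8 and 14.4 CPM in the Sham-Saline mice and 19.04, 17.6, 17.8 and 17.2 CPM in the Sham-DMI mice. The groups did not overlap, and its log2 fold change was 0.28 (SE 0.08, adjusted p = 0.0305).

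The caudal genes did not pass the test. Hoxd11 differed most in size, with 7.22 ± 3.02 CPM in Sham-Saline and 3.04 ± 2.48 CPM in Sham-DMI mice (SD, n = 4) and a log2 fold change of -1.26 (SE 0.67) that did not pass (adjusted p = 0.215). Hoxd10 had -0.91 (SE 0.61, adjusted p = 0.335) and Hoxc11 -0.89 (SE 0.78, adjusted p = 0.479). The median over the tested Hox genes was -0.05, against -0.02 over all genes. In the same comparison 11.6% of all genes were called higher and 11.9% lower. Of 4 markers of bone marrow neutrophils 3 were called lower (median log2 fold change -1.55). Of 9 DRG neuron markers 2 were called higher (Prph and Tubb3) and 1 lower (Scn9a), of 4 satellite glia markers 1 higher (Fabp7) and 1 lower (Cdh19), and the astrocyte marker Slc1a2 and the motor neuron marker Slc5a7 were called lower. The part of these cells in the Hox values was not tested.

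Injury under DMI (SNI-DMI versus Sham-DMI) gave 0 calls by edgeR among the Hox genes, with 3 at an unadjusted p under 0.05 (12.1% of all genes), where 0.402% of all tested genes were called. DESeq2 called 1, Hoxb8, beside 2.55% of all genes it tested. Hoxb8 had 16.1, 12.97, 16.7 and 14.2 CPM in the SNI-DMI mice, all below the Sham-DMI mice, with a log2 fold change of -0.26 (SE 0.08) and adjusted p-values of 0.240 by edgeR and 0.0995 by DESeq2. Hoxd1 had -0.18 (SE 0.08, edgeR adjusted p = 0.392) and Hoxc5 0.25 (SE 0.11, edgeR adjusted p = 0.394). Hoxd10 had 10.3 ± 8.26 CPM in Sham-DMI and 22.4 ± 8.77 CPM in SNI-DMI mice (SD, n = 4), or 1.14 higher on the log2 scale in the latter (SE 0.61, adjusted p = 0.472). The 4 skeletal muscle markers had a median log2 fold change of 4.29 here, with 181 CPM in SNI-DMI replicate 2 and at most 2.80 CPM in any other mouse of both groups, none was called, and their part in the Hox values was not tested.

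**Figure D4:**
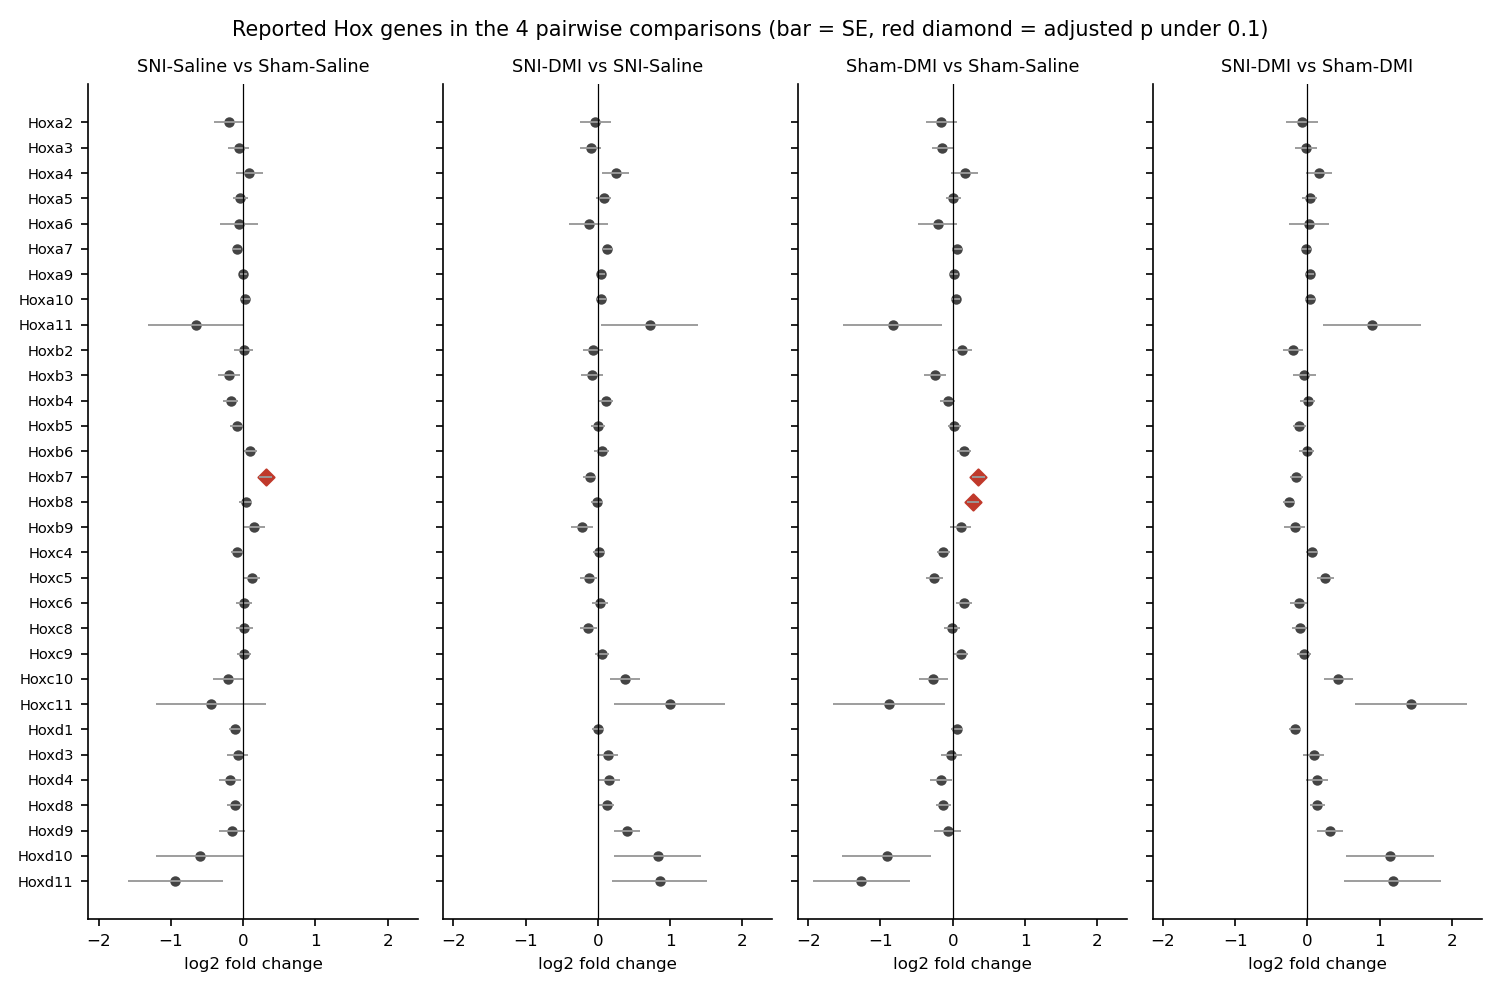
Log2 fold change of the reported Hox genes in the 4 pairwise comparisons, ordered by cluster and paralogue group, with horizontal lines for the SE and red diamonds for genes with an adjusted p under 0.1. The 3 diamonds are Hoxb7 in the first panel and Hoxb7 and Hoxb8 in the third, and the longest lines belong to Hoxa11, Hoxc11, Hoxd10 and Hoxd11.

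Whether DMI acted differently in injured and in sham mice was tested as the interaction of surgery and drug. No Hox gene was called by edgeR, which called 0% of all tested genes, nor by DESeq2, which called 0.0664%, while 5 Hox genes had an unadjusted p under 0.05 beside 7.92% of all genes. The smallest p belonged to Hoxb7, whose DMI effect was lower in injured mice by a log2 difference of -0.47 (SE 0.13, edgeR adjusted p = 0.619). Hoxb8 had -0.29 (SE 0.12, adjusted p = 0.619) and Hoxd11 2.12 (SE 0.94, adjusted p = 0.619). By the rule used in the study for differentially expressed genes (unadjusted p under 0.05 and a log2 fold change of at least 0.32 in size), 1, 1, 2, 0 and 4 Hox genes passed in the 5 comparisons in the order given. The corresponding shares of all genes were 7.15%, 5.73%, 11.5%, 5.41% and 3.45%.

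The partner proteins and the keepers of Hox expression were also read. Hox proteins bind DNA together with TALE homeobox cofactors, and Polycomb and Trithorax proteins hold Hox genes in their silent or active state. After injury 0 of 9 cofactors were called by edgeR or by DESeq2, which called 21.2% of all genes it tested, and 1 had an unadjusted p under 0.05, as did 23% of all genes. Of 19 tested Polycomb and Trithorax genes 0 were called higher and 2 lower, where 5.85% and 6.18% of all genes were. Suz12, a core subunit of Polycomb complex 2, had a log2 fold change of -0.25 (edgeR adjusted p = 0.0273) and its partner Jarid2 of -0.19 (adjusted p = 0.0863).

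In injured mice given DMI edgeR called 1 cofactor and 1 Polycomb gene higher, where 1.32% of all genes were called higher and 1.61% lower. DESeq2 called 2 of 9 cofactors and 5 of the Polycomb and Trithorax genes, beside 11.6% of all genes it tested. An unadjusted p under 0.05 by edgeR was found for 2 cofactors and 7 of the 19 Polycomb and Trithorax genes, beside 18.5% of all genes. Pbx4 rose by a log2 fold change of 0.35 (edgeR adjusted p = 0.0736) and Ring1, a ubiquitin ligase of Polycomb complex 1, by 0.23 (adjusted p = 0.0949). In sham mice given DMI 2 cofactors were called higher and 1 lower, and 3 of the 19 Polycomb and Trithorax genes were called lower, where 11.6% of all genes were called higher and 11.9% lower. Suz12 had a log2 fold change of -0.29 (adjusted p = 0.00501), Bmi1, a Polycomb complex 1 subunit, of -0.29 (adjusted p = 0.0113), and the Trithorax methyltransferase Kmt2a of -0.35 (adjusted p = 0.0296). Pbx4 had 0.32 (adjusted p = 0.0192). For injury under DMI and the interaction edgeR called no gene of either list, where 0.402% and 0% of all genes were called. At an unadjusted p under 0.05 there were 2 and 0 cofactors and 3 and 1 Polycomb or Trithorax genes. The shares of all genes under 0.05 were 12.1% and 7.92%. DESeq2 called 1 Polycomb or Trithorax gene for injury under DMI, beside 2.55% of all genes it tested. Each group of mice enters 2 of the 4 pairwise comparisons, so these values are not independent.

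A search over all genes, added after the values were seen, asked which genes follow Hoxd10 from mouse to mouse within groups. The level of Hoxd10 was entered beside the group in the edgeR model, and 270 of 21371 genes were called at an adjusted p under 0.1, or 1.26%. Hoxd10 itself is 1 of the 270 by construction. Of the other Hox genes 5 were called, all rising with Hoxd10 as 1.15% of all genes did. For each doubling of Hoxd10, Hoxc11 rose by 1.45, Hoxd11 by 1.17, Hoxc10 by 0.22, Hoxd9 by 0.18 and Hoxd8 by 0.09 on the log2 scale. Their edgeR adjusted p-values were 2.65e-07 for Hoxc11, 6.51e-08 for Hoxd11, 0.00799 for Hoxc10, 0.0191 for Hoxd9 and 0.0824 for Hoxd8. Sham-DMI replicate 4 and SNI-Saline replicate 4 were the libraries farthest from the median of Hoxd10 on the log2 scale, both low in Hoxd10. Without them Hoxc6, Hoxc8 and Hoxa6 were called as well, with slopes of -0.22, -0.19 and -0.42. In that fit, which kept SNI-DMI replicate 2 with the highest Hoxd10, 9.02% of all genes were called, 3.69% rising and 5.33% falling.

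Of genes that are not members 239 rose and 25 fell with Hoxd10, and without the libraries farthest from its median 789 rose and 1145 fell, so the balance of directions rests on those libraries. The first by p was Srd5a2, a steroid 5-alpha reductase, which had 3.37, 16.5, 15.3 and 17.6 CPM in the Sham-Saline mice and 10.8, 11.9, 3.23 and 3.12 CPM in the SNI-Saline mice. It had 12.3, 7.10, 7.64 and 0.0946 CPM in the Sham-DMI mice and 7.15, 23.4, 7.42 and 15.1 CPM in the SNI-DMI mice. The low and high mice were again those of Hoxd10, and the slope was 1.203 (edgeR adjusted p = 1.79e-06). Penk, the precursor of the enkephalin opioid peptides, ran from 8.51 CPM in Sham-DMI replicate 4 to 83.9 CPM in SNI-DMI replicate 2, with a slope of 0.55 (adjusted p = 2.16e-05). Uts2b, a urotensin peptide, had a slope of 1.25 (adjusted p = 0.000921) and the receptor gene Gpr83 one of 0.31 (adjusted p = 0.00454).

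Fabp4 and Cfd, both known from fat cells among others, had the smallest p of those that went the other way. Fabp4, a lipid carrier, had a slope of -0.79 (edgeR adjusted p = 0.00730) and ran up to 8.497 CPM in Sham-DMI replicate 4, and Cfd, known as adipsin, had one of -0.92 (adjusted p = 0.0169) and ran up to 11.7 CPM in the same mouse. Of the 4 adipocyte markers Adipoq ran from 0.0153 CPM in SNI-DMI replicate 2 to 1.67 CPM in Sham-DMI replicate 4. Cidec ran from 0.0489 to 1.33 CPM and Plin1 from 0.0349 to 0.530 CPM, both highest in SNI-Saline replicate 3, and Lep did not exceed 0.0788 CPM. The part of fat tissue in this pattern was not tested.

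**Figure D5:**
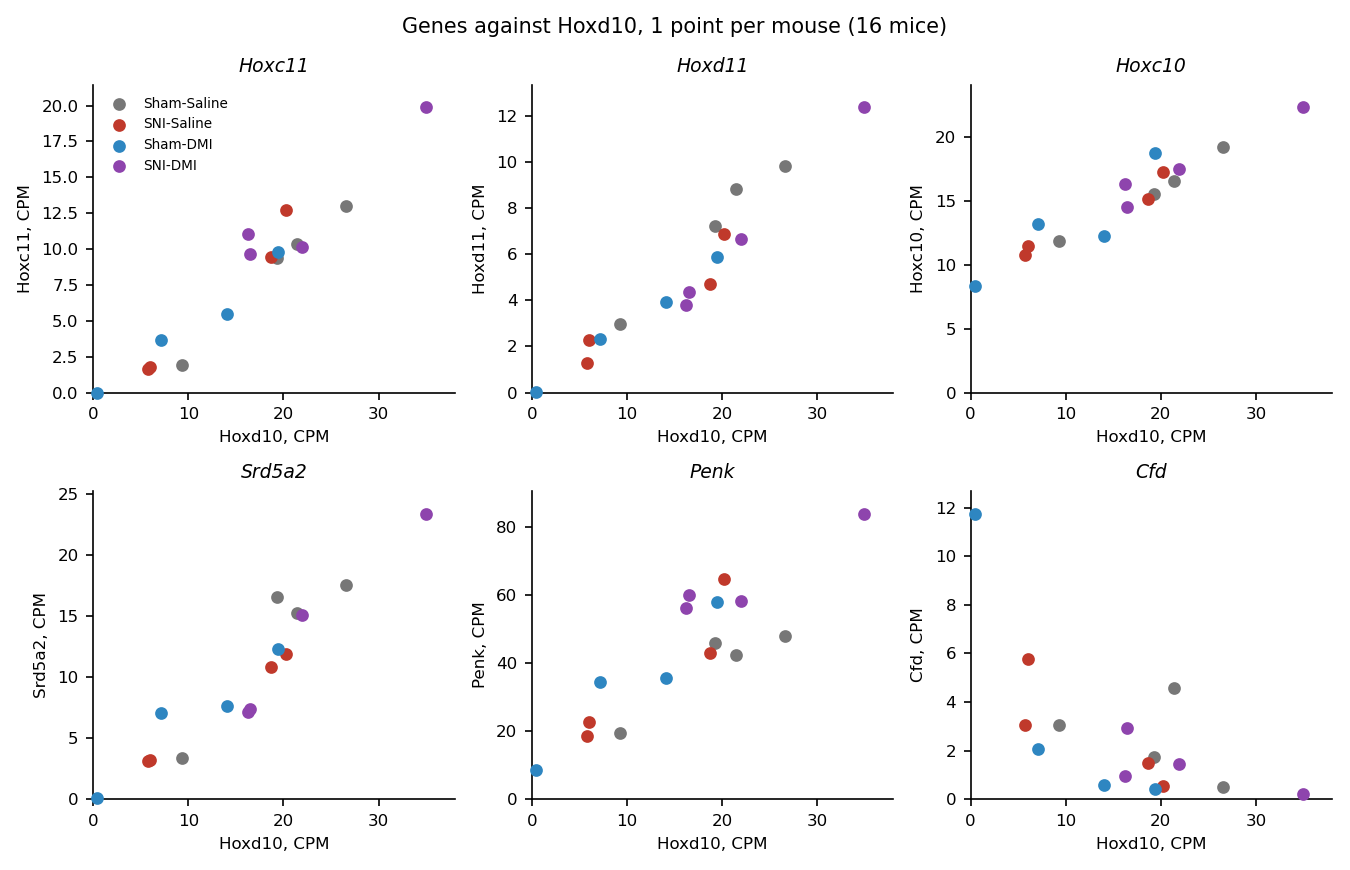
Level in CPM of 6 genes on the vertical axes against Hoxd10 in CPM, with 1 point per mouse coloured by group. Hoxc11, Hoxd11, Hoxc10, Srd5a2 and Penk climb with Hoxd10 through mice of all 4 groups, and Cfd is highest, at 11.7 CPM, in the mouse with the lowest Hoxd10.

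With the Hoxd10 level in the model, the number of genes called over the whole genome changed in some comparisons. For DMI in injured mice it was 0 by edgeR, with 3300 at an unadjusted p under 0.05, against 626 called and 3961 under 0.05 without Hoxd10. This count also ran from 0, without SNI-Saline replicate 1, to 1842, without Sham-DMI replicate 1, when single mice were left out. For injury without drug it was 2568 against 2571, for DMI in sham mice 5282 against 5010, and for injury under DMI 44 against 86. Leaving out single mice moved these counts from 682 to 3286 for injury (lowest without Sham-Saline replicate 3), from 3286 to 6094 for DMI in sham mice and from 17 to 850 for injury under DMI, each a wider range than the change with Hoxd10. Among the Hox genes the injury call stayed at 1 and the calls for DMI in sham mice came to 4 in place of 3.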

How the data were processed

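Reads were mapped by the authors to mm10. The deposited values are whole-number counts of reads per Ensembl gene. HISAT2, HTSeq and DESeq2 are named in the submitters' processing notes, and the strand setting of the counting is not given in the sources used here. Reads on genes made up 79.6% to 81.2% of each library, and the lines for unassigned reads were left out. Genes were placed with GENCODE M21 on GRCm38.

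The tests were run with edgeR 4.0.16 in R 4.3.3 (filterByExpr, TMM scaling, 1 coefficient per group over all 16 libraries, quasi-likelihood test). Adjusted p-values are by Benjamini-Hochberg over all 21371 genes tested, CPM use TMM-scaled library sizes, and log2 CPM use a prior count of 2. The fit was tested on simulated data. Alternatives were DESeq2 1.42.0, upper-quartile scaling, other filters, a replicate block, trends on GC content and length removed with mgcv 1.9.3, and leaving out each library. The members, lists and tests were chosen with earlier results of these data known, and the analyses built on Hoxd10 after its values were seen. Some results are not reported here. Named otherwise are every Hox gene with a mean of at least 1 CPM, groups 10 to 13, in each comparison the genes called or else the 3 with the smallest p, and at most 4 called list genes per comparison. The numbers in the sample titles run in a separate block for each group. What they stand for is not stated, so these blocks and the groups cannot be told apart. The edgeR and DESeq2 p-values set a difference or slope against the spread between these mice within groups. The permutation p-values rest on shuffles of the mice within groups.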

Additional observations from a re-analysis of the deposited data

Results flagged for a closer look

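In each group of 4, every Hox gene with a mean of at least 1 CPM, and the share of Hox reads on groups 10 to 13, was checked for 1 mouse whose gap to the nearest other mouse took up most of the range of the group (above Dixon's 95% critical value). Chance marks about 1 in 20 groups, and 10 of 120 were marked. In the Sham-Saline group Hoxa6 was 2.072 CPM in replicate 3 against 1.46 to 1.54 CPM in the other mice, and Hoxb5 was 12.91 CPM in replicate 4 against 15.3 to 15.4 CPM. In the SNI-Saline group replicate 4 was apart in Hoxb5, at 15.25 CPM against 13.3 to 13.4 CPM, and in Hoxb8, at 17.54 CPM against 14.1 to 14.4 CPM.

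In the Sham-DMI group replicate 4, the mouse with the lowest Hoxd10, was apart in Hoxa7, at 28.5 CPM against 31.6 to 32.1 CPM, and in Hoxb7, at 13.43 CPM against 10.4 to 10.9 CPM. Replicate 1 of that group was apart in Hoxc4, at 9.854 CPM against 8.29 to 8.55 CPM, and in Hoxc6, at 12.11 CPM against 14.9 to 15.4 CPM. In the SNI-DMI group replicate 2, the mouse with the highest Hoxd10, was apart in Hoxc11, at 19.88 CPM against 9.65 to 11.03 CPM, and in Hoxb7, at 9.142 CPM against 10.4 to 10.6 CPM. Hoxd10 and the share were not marked in any group.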

How the results depend on the processing

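In each comparison the signs of the Hox genes called, or else of the 3 with the smallest p, were checked. None of these changed sign under the alternatives run for it, though Hoxd11 in the interaction fell to 0.029 at its lowest. The signs of the other Hox genes given with fold changes were not checked. Medians of DMI under sham and of injury under DMI did change sign. Of the Hox calls, the 1 for injury fell to 0 once trends on GC content and length were removed, with or without the replicate block, and the 0 for injury under DMI became 1 with DESeq2 on all libraries. Deviations of same-numbered mice of different groups correlated at -0.0813 to 0.184 (median 7.43e-06), and 5 of 24 pairs exceeded 0.1. For mice of different numbers the range was -0.248 to 0.169 (median 0.00137), and 7 of 72 pairs exceeded 0.1. These values do not settle whether replicate numbers pair the mice. With the replicate block 1, 0, 2, 0 and 0 Hox genes were called for injury, DMI under SNI, DMI under sham, injury under DMI and interaction. Counts under the unadjusted rule moved more. Without a filter on low counts they were 2, 3, 5, 6 and 9 in that order, against 1, 1, 2, 0 and 4. For injury the count was 2 with upper-quartile scaling, with DESeq2 on the contrast alone and without both libraries farthest from the median of Hoxd10. For DMI under SNI it was 2 with edgeR on the contrast alone, and 0 with the trends removed (also with the block), with Hoxd10 in the model and without those libraries. For DMI under sham it was 4 with DESeq2 on the contrast alone and 1 without those libraries. For injury under DMI it was 1 with the block, the trends removed, both together, either DESeq2 fit or Hoxd10 in the model, and for the interaction it was 1 with Hoxd10 in the model. Median log2 fold changes moved to -0.1542 and, with the block, -0.1545 for injury when the trends were removed, and to -0.06532 and -0.07102 for injury under DMI. With Hoxd10 in the model the median was 0.04725 for DMI under sham and 0.006997 for the interaction, and without those libraries the interaction median was 0.01999. Without Hoxa10, groups 10 to 13 held 13.958%, 10.557%, 8.6563% and 15.893% of Hox reads (saline sham, saline SNI, DMI sham and DMI SNI mice). With upper-quartile scaling r was 0.5662 for Hoxa10 with Hoxc10 and 0.5576 with Hoxd10, both at an adjusted permutation p of 0.0512. Leaving out 1 mouse at a time gave 0 to 1 calls for injury, and under the unadjusted rule 0 to 2 for injury, 0 to 2 for DMI under SNI, 1 to 5 for DMI under sham, 0 to 5 for injury under DMI and 1 to 7 for the interaction, whose median ran from 0.05101 to 0.1593. It gave r from 0.4904 to 0.7115 for Hoxa10 with Hoxc10 (0.4904 to 0.5999 where the adjusted p passed 0.05), from 0.5279 to 0.6469 with Hoxd10 (0.5279 to 0.6004) and from 0.832 to 0.930 for Hoxc10 with Hoxd10. The causes were not tested. Depth limits the genes of groups 12 and 13, Hoxb1 and Hoxa11. In Sham-DMI replicate 4 it also limits Hoxc11 (0 reads) and Hoxd11 (2 reads), whose SDs and slopes on Hoxd10 include that library.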

Other observations

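Noncoding genes lie between the Hox genes, and 8 of 9 were tested. After injury Hoxaas2, a transcript antisense to Hoxa3, was the one called, where 12% of all genes were. It had 4.59, 4.76, 4.67 and 5.12 CPM in the Sham-Saline mice and 3.75, 4.06, 3.86 and 3.61 CPM in the SNI-Saline mice, without overlap, and a log2 fold change of -0.33 (SE 0.10, edgeR adjusted p = 0.0531). In the other comparisons edgeR called none of these genes, where 0% to 23.4% of all tested genes were called. Hotair, a noncoding RNA of cluster C beside Hoxc11, ran from 0 CPM in Sham-DMI replicate 4 to 2.53 CPM in SNI-DMI replicate 2, the mice at the ends of Hoxd10, and rose with Hoxd10 within groups by a slope of 1.15 (edgeR adjusted p = 0.00881, and 0.0420 without both libraries farthest from the median of Hoxd10).

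Of 8 caudal homeobox and axial patterning genes 2 were tested. Neither was called by edgeR in any comparison, where 0% to 23.4% of all tested genes were called. DESeq2 called 1 gene of this list for injury under DMI, beside 2.55% of all genes it tested. Cdx2, Cdx4 and Evx1 had no read in any library. Gdf11, a signal known to set the position of the sacral level in the embryo, had 29.9 to 42.2 CPM, and Cyp26a1, which degrades retinoic acid, had 0.0749 to 0.889 CPM. Its log2 fold change was 1.35 (SE 0.49, edgeR adjusted p = 0.105) for injury and 1.54 (SE 0.49, edgeR adjusted p = 0.223) for injury under DMI.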
